A study of Mus musculus with 16 samples.

Results

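Chemokines are small secreted proteins that attract leukocytes along a concentration gradient, and their receptors are membrane proteins that signal through G proteins. The genes described here are those whose single symbol in the platform annotation is a chemokine ligand (Ccl, Cxcl, Xcl, Cx3cl), a chemokine receptor (Ccr, Cxcr, Xcr, Cx3cr) or an atypical receptor (Ackr). The rule found 53 genes, measured by 85 probe sets, among the 18193 genes with a single symbol on the array. No filter on signal was applied, and each gene was represented by its probe set with the highest mean over the 16 arrays.

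The study asked whether pregnancy changes the normally small inflammatory response of the lung to particles regarded as inert. Female BALB/c mice, pregnant (gestation day 14) or non-pregnant, received 50 ug of baked TiO2 in 50 uL of phosphate-buffered saline (PBS), or PBS alone, by a single intranasal insufflation. Total lung RNA taken 19 hours later was hybridised to Affymetrix mouse expression arrays, with 4 arrays in each of the 4 groups: non-pregnant PBS, non-pregnant TiO2, pregnant PBS and pregnant TiO2. All groups share the anaesthesia and the liquid insufflation, and no untouched lung was included. Nothing in the labels says that each array is a separate mouse, so p-values measure the spread between these samples. The labels of non-pregnant PBS replicate 2 disagree, since its source is called pregnant and its gestation non-pregnant. It was kept as non-pregnant because the design gives 4 samples to each group, and results are also given with it counted as pregnant PBS.

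Levels are log2(intensity + 16) after quantile normalization, which gives every array the same distribution and a median of 5.94. Differences are on that scale, with their standard error (SE), and understate the change of dim genes. "Called" means an adjusted p under 0.05 in limma, adjusted over all 18193 genes. In whole lung, more cells of a type and more RNA per cell cannot be told apart. Before normalization the trimmed means of the arrays ran from 137 to 263. The lung genes Sftpc (surfactant protein C) and Scgb1a1 (club cell secretory protein) were between 13.15 and 13.55 on every array. Quantile normalization narrows the range of the brightest probe sets, so these values do not test whether the arrays held equal lung tissue. Some arrays stood apart: non-pregnant PBS replicates 3 and 4 carried thymus transcripts (Prss16, a thymic epithelial protease, at 8.98 and 9.72, against 6.32 or less elsewhere), and pregnant TiO2 replicate 2 had Krt13 (squamous keratin) at 5.21 and Acta1 (muscle actin) at 6.56, against at least 10.71 and 11.86 elsewhere.

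In the lung, CXC ligands with an ELR motif recruit neutrophils through Cxcr2, and CC ligands recruit monocytes, lymphocytes and eosinophils through the Ccr receptors. Other ligands are made constitutively and place lymphocytes and dendritic cells in tissue, and atypical receptors bind chemokines without G protein signalling. Of the 53 genes, 34 were above the array median on at least 4 arrays, and 21 were above it on all 16. The remaining 19 were near the floor: Ccl1, Ccl2, Ccl3, Ccl7, Ccl20, Ccl24, Ccl25, Cxcl2, Cxcl3, Cxcl5, Cxcl9, Cxcl11, Xcl1, Ccr3, Ccr4, Ccr8, Ccr9, Ccr10 and Xcr1. Of these, 13 were at or under the median on all arrays. A dim probe set can follow its transcript poorly, so differences among these 19 genes carry less weight.

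Chemokine genes passed the test for pregnancy and not for TiO2. Averaged over both exposures, 5 genes rose in pregnant lung and 1 fell. The CC ligand Ccl9, its receptor Ccr1, the monocyte receptor Ccr2, the receptor Cxcr6 and its ligand Cxcl16 were higher, by 1.22-fold to 1.70-fold, and Cxcl14, a constitutive ligand of epithelia, was lower at 0.665-fold. These are 6 of 53 genes, or 11.3%, where 2.30% of all genes were called. Of the 53 genes 35, or 66%, were above 0, where 53.5% of all genes were. The median difference was 0.14 against 0.01 over all genes. With non-pregnant PBS replicate 2 counted as pregnant, and with the deposited values left without normalization between arrays, 1 gene, Ccl9, was called in each case. Of all genes 0.176% and 0.313% were called in these fits. Without the 2 arrays with thymus transcripts the count was 8, where 4.11% of all genes were called, and 5 of the 6 genes were among them.

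**Figure D1:**
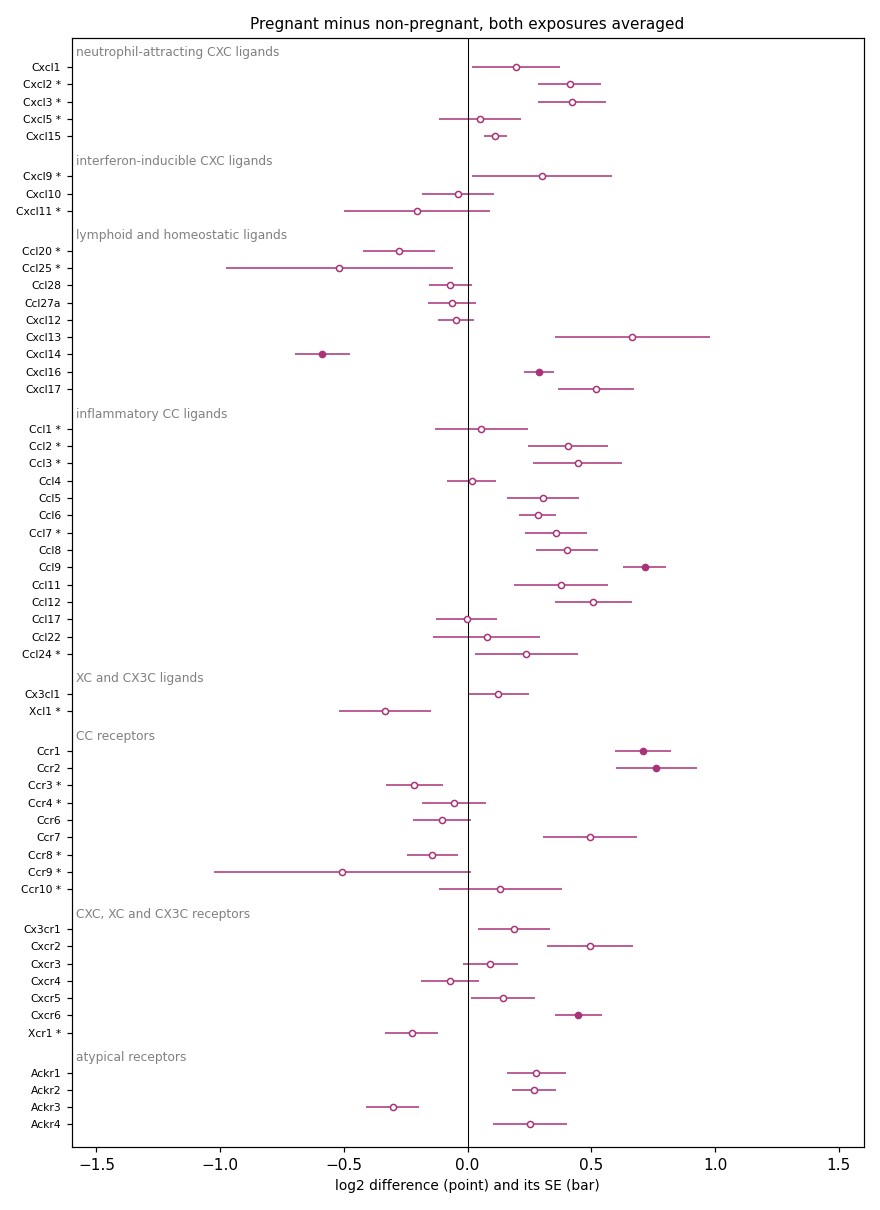
Pregnant minus non-pregnant difference, mean of both exposures, for the 53 genes grouped by role. Points are log2 differences, bars are 1 SE, filled points have an adjusted p under 0.05, and an asterisk marks genes near the floor. Ccl9, Ccr1, Ccr2, Cxcr6 and Cxcl16 are filled to the right of 0 and Cxcl14 is filled to the left.

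Ccl9, an inflammatory CC ligand of macrophages and other myeloid cells, had the smallest p of the family. On the non-pregnant PBS arrays it read 8.83, 8.80, 8.65 and 8.72, and on the non-pregnant TiO2 arrays 8.68, 9.19, 8.73 and 8.77. The pregnant PBS arrays gave 9.46, 9.42, 9.42 and 9.42, and the pregnant TiO2 arrays 9.25, 9.59, 9.73 and 9.80. Every pregnant array was above every non-pregnant array, a separation in this direction that 0.401% of all genes showed. The difference was 0.72 ± 0.09 (SE, 8 against 8 arrays), or 1.64-fold, with an adjusted p of 0.000581. It was 0.68 ± 0.12 after PBS (adjusted p = 0.0193) and 0.75 ± 0.12 after TiO2 (adjusted p = 0.0189). Its other probe set differed by 0.66 ± 0.12 (adjusted p = 0.0180 over all probe sets). Without the 2 arrays with thymus transcripts the difference after PBS was 0.62 and was no longer called (adjusted p = 0.0858).

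Ccr1, the receptor that Ccl9 and other inflammatory CC ligands bind on myeloid cells, read 7.21, 7.23, 7.19 and 7.09 on the non-pregnant PBS arrays and 8.34, 8.25, 8.02 and 7.79 on the pregnant PBS arrays. The non-pregnant TiO2 arrays gave 6.85, 7.04, 7.28 and 7.25 and the pregnant TiO2 arrays 7.22, 7.42, 7.89 and 7.88. The groups were apart after PBS and overlapped after TiO2, where pregnant replicate 1 lay among the non-pregnant arrays. The mean difference was 0.71 ± 0.11 (adjusted p = 0.00352), with 0.92 ± 0.16 after PBS (adjusted p = 0.0169) and 0.50 ± 0.16 after TiO2 (adjusted p = 0.150). The test of the change between exposures gave -0.42 ± 0.22 (adjusted p = 0.596). Without the 2 arrays with thymus transcripts the PBS difference was 0.88 (adjusted p = 0.0650). Ccr1 has 2 probe sets, and the other is not given alone here. With the mean of its probe sets Ccr1 was called over both exposures and after PBS.

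Ccr2, the receptor for Ccl2 and related ligands that marks classical monocytes, read 8.35, 7.71, 8.53 and 7.42 in non-pregnant PBS and 7.28, 7.78, 7.58 and 7.52 in non-pregnant TiO2. The pregnant PBS arrays read 9.08, 8.77, 8.78 and 8.31, and the pregnant TiO2 arrays 8.43, 8.66, 7.94 and 8.28. Pregnant arrays were higher after TiO2 without overlap, and after PBS pregnant replicate 4 fell within the non-pregnant range. The difference was 0.76 ± 0.16 (adjusted p = 0.0230), with nearly the same size after PBS (0.74 ± 0.23, adjusted p = 0.249) and after TiO2 (0.79 ± 0.23, adjusted p = 0.125), where neither was called alone. The other 3 probe sets of Ccr2 gave 0.54 ± 0.12, 0.29 ± 0.13 and 0.27 ± 0.31. When the mean of all its probe sets was taken, Ccr2 was not called. Nor was it called without non-pregnant PBS replicate 2, non-pregnant TiO2 replicate 1, pregnant PBS replicate 1 or pregnant TiO2 replicate 1. In these fits 1.79%, 1.52%, 1.56% and 1.61% of all genes were called, in that order.

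Cxcr6, a receptor of resident and activated T cells and natural killer cells, and Cxcl16, its ligand, made by macrophages and other cells as a membrane-bound and a shed form, both rose. Cxcr6 read 6.06, 5.60, 5.96 and 5.85 in non-pregnant PBS, 5.77, 5.45, 5.89 and 5.59 in non-pregnant TiO2, 6.10, 6.50, 6.12 and 6.14 in pregnant PBS and 6.00, 6.43, 6.27 and 6.19 in pregnant TiO2. The levels lay close to the array median, and the pregnant arrays were higher without overlap after each exposure. The difference was 0.45 ± 0.09 (adjusted p = 0.0218), and the other probe set gave 0.78 ± 0.15. Cxcl16 read 8.51, 8.52, 8.31 and 8.46 in non-pregnant PBS, 8.48, 8.43, 8.27 and 8.42 in non-pregnant TiO2, 8.57, 8.48, 8.64 and 8.66 in pregnant PBS and 8.90, 8.99, 8.77 and 8.70 in pregnant TiO2. The pregnant TiO2 arrays were above all others, and the PBS groups overlapped. The difference for Cxcl16 was 0.29 ± 0.06 over both exposures (adjusted p = 0.0218), 0.14 ± 0.09 after PBS (adjusted p = 0.649) and 0.44 ± 0.09 after TiO2 (adjusted p = 0.0393). Cxcl16 has 2 probe sets, and the other is not given alone here. With the mean of its probe sets Cxcl16 was called over both exposures and after TiO2. Without the 2 arrays with thymus transcripts the average difference of Cxcl16 was 0.26 (adjusted p = 0.0515), and without those and pregnant TiO2 replicate 2 that of Cxcr6 was 0.43 (adjusted p = 0.0528).

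Cxcl14 was the gene that fell. It read 9.68, 9.57, 9.16 and 9.36 in non-pregnant PBS and 8.36, 8.23, 8.71 and 8.56 in pregnant PBS, so that the groups were apart. After TiO2 the non-pregnant arrays read 9.00, 9.19, 9.18 and 8.84 and the pregnant arrays 8.89, 9.26, 8.67 and 8.59, and these groups overlapped. The PBS difference was -0.98 ± 0.16, or 0.508-fold (adjusted p = 0.0105), and the TiO2 difference was -0.20 ± 0.16 (adjusted p = 0.580). The average was -0.59 ± 0.11 (adjusted p = 0.0108), and the other probe set gave -0.44 ± 0.10. After PBS without the 2 arrays with thymus transcripts, the difference was -1.16 (adjusted p = 0.0144).

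**Figure D2:**
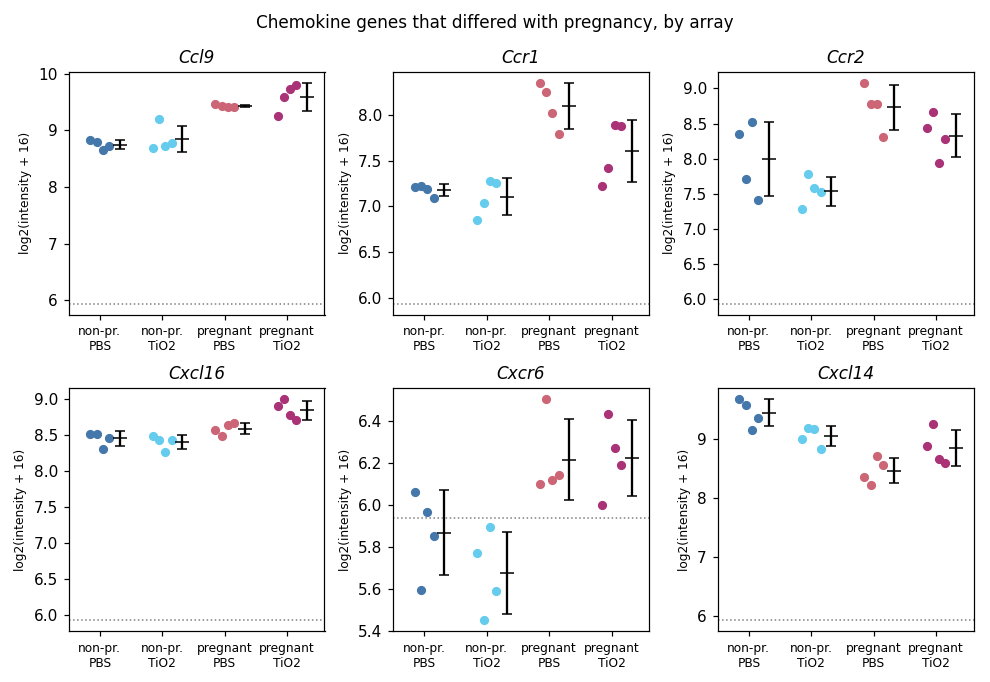
Level of each of the 6 genes called for pregnancy, log2(intensity + 16), by array. Points are arrays, bars are the group mean ± SD of 4 arrays, and the dotted line is the array median. For Ccl9 the 8 pregnant arrays, 9.25 to 9.80, lie above the 8 non-pregnant arrays, 8.65 to 9.19.

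The RefSeq promoter windows of 3 of these genes are printed because their calls carry the pregnancy result and in PBS lungs they moved in opposite directions. Each window runs from 250 bases before to 50 bases after the transcription start in build GRCm38.p6, 5′ to 3′ along the gene, and 40 of the 53 genes had a window in the table. Capitals mark spellings that were searched: TATAAA on the printed strand, the interferon-stimulated core, the STAT spelling TTCNNNGAA and the GC box GGGCGG on both strands, along with NF-kB, AP-1 (TGAGTCA or TGACTCA), C/EBP (TTGCGCAA or TTGCGTAA), the PU.1 core GAGGAAGT and CRE (TGACGTCA).
Ccl9, chr11:83578587-83578886, minus strand: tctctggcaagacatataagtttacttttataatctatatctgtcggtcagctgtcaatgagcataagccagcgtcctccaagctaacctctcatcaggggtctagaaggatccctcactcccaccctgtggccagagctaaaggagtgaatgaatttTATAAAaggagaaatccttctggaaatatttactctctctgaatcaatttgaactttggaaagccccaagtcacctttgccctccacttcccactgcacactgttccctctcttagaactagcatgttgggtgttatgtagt
Ccr1, chr9:123968643-123968942, minus strand: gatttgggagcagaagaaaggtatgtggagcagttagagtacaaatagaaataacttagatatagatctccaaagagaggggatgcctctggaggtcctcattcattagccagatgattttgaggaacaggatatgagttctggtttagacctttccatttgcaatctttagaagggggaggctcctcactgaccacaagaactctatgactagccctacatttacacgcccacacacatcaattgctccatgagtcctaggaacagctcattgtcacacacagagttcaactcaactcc
Cxcl14, chr13:56296502-56296801, minus strand: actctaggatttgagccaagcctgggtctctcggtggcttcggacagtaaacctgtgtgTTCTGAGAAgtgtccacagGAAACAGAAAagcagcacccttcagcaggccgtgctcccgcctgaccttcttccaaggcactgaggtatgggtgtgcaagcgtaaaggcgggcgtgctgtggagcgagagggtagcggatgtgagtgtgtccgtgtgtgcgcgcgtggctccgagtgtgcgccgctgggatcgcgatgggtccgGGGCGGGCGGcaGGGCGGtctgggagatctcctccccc
The Ccl9 window held TATAAA at base -92 from the start, a spelling present in 27.3% of the 44 windows of the family and 8.32% of all 32851 windows. None of the searched spellings lay in the Ccr1 window. The Cxcl14 window held TTCNNNGAA at -191 (8.30% of all windows), the interferon-stimulated core at -172 (3.44%) and GGGCGG at bases 12, 16 and 24 after the start (35.7%), the first 2 of these GC boxes overlapping. Its GC content was 62.7%, against 43.7% for Ccl9 and 44.0% for Ccr1. These matches describe the letters of the windows and say nothing on which factor binds there.

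The genes called for pregnancy also lie near each other in part. Ccr9, Cxcr6, Xcr1, Ccr1, Ccr3 and Ccr2 form a cluster on chromosome 9 in the RefSeq gene order. Cxcr6, Ccr1 and Ccr2 were called higher, while Ccr9, Xcr1 and Ccr3, all near the floor, differed by -0.51, -0.23 and -0.22 and were not called. The value of Ccr9 rests on the 2 arrays with thymus transcripts, where it read 9.02 and 9.37, and without them it was 0.48 ± 0.13 (adjusted p = 0.0527). Ccl9 lies between Ccl5 and Ccl6 on chromosome 11, in a run with Ccl3 and Ccl4. Their differences were 0.31 for Ccl5, 0.28 for Ccl6, 0.44 for Ccl3 and 0.02 for Ccl4, and none passed the test.

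Markers of blood leukocytes moved with pregnancy in the same arrays. Over both exposures 2.30% of all genes were called, and 53.5% were above 0. Of 13 measured neutrophil markers, 9 were called higher in pregnant lung over both exposures, among them S100a9 by 1.31 and S100a8 by 1.05. The summed intensity of that list was 5210 to 6659 in non-pregnant PBS, 5002 to 7651 in non-pregnant TiO2, 11653 to 16998 in pregnant PBS and 8579 to 11158 in pregnant TiO2. The granulocyte precursor markers Mpo and Elane were near the floor. Of 7 platelet markers 6 were called higher, and of 8 macrophage markers 3 (Marco by 1.47, Chil3 by 0.69 and Cd68 by 0.51), with macrophage sums of 10967 to 12754 in non-pregnant PBS, 11900 to 12744 in non-pregnant TiO2, 13268 to 13975 in pregnant PBS and 12892 to 13802 in pregnant TiO2. Of 8 B cell markers 7 were above 0 with a median of 0.57, and 1 was called (Cr2 by 0.73). All 8 had an unadjusted p under 0.05, where 15.4% of all genes did. Among these 8 Pax5, near the floor, was the 1 that was lower. The B cell sums were 1133 to 2137 in non-pregnant PBS, 724 to 1216 in non-pregnant TiO2, 1448 to 2052 in pregnant PBS and 1213 to 1991 in pregnant TiO2. The T cell markers averaged opposite differences, with 0 of 9 above 0 after PBS (median -0.54), where the 2 arrays with thymus transcripts are among the non-pregnant arrays, and 9 of 9 after TiO2 (median 0.42). Over both exposures limma called 0 of 9 T cell markers (0 at an unadjusted p under 0.05). Without those 2 arrays it called 4 of 9, where 4.11% of all genes were called, with 9 of 9 above 0 and a median of 0.48. Of 6 natural killer cell markers limma called 0 (0 at an unadjusted p under 0.05), with a median of 0.10. The part of these cell types in the chemokine differences was not tested.

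Separate comparisons after each exposure showed fewer calls. After PBS 3 of the 53 genes, or 5.66%, were called between pregnant and non-pregnant lung (Ccl9 and Ccr1 higher, Cxcl14 lower), where 0.506% of all genes were. After TiO2 2 genes, or 3.77%, were called (Ccl9 and Cxcl16, both higher), where 0.775% of all genes were. In the PBS arrays 8 genes had groups that did not overlap, 6 higher in pregnancy (Ccl9, Ccr1, Ackr2, Cxcl17, Cxcr6 and Ccl2), where 2.92% of all genes were, and 2 lower (Cxcl14 and Cxcl10), where 2.02% were. In the TiO2 arrays 14 of the 53 had such groups, or 26.4%, and all 14 were higher in pregnancy, where 7.48% of all genes were. These were Ccl5, Ccl6, Ccl8, Ccl9, Ccl12, Ccr2, Ccr7, Ccr9, Cx3cr1, Cxcl3, Cxcl15, Cxcl16, Cxcl17 and Cxcr6. In the same comparison all 5 fat markers were above 0, with a median of 1.31, 0 called by limma and 4 at an unadjusted p under 0.05, and B cell markers had a median of 0.89, 1 called and 7 of 8 at such a p. Fat sums ranged from 1266 to 6142 in non-pregnant TiO2 and from 2222 to 11149 in pregnant TiO2, against 5640 to 11438 and 4509 to 11269 in the PBS groups. The part of fat and lymphocytes in the chemokine differences was not tested. Without the 2 arrays with thymus transcripts the count called after PBS was 1 (Cxcl14), where 0.775% of all genes were called. The 2 calls after TiO2 were both lost when non-pregnant TiO2 replicate 1 or 3, or pregnant TiO2 replicate 3 or 4, was left out. In these fits 0.077%, 0.0989%, 0.198% and 0.187% of all genes were called, in that order.

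Other members with small p in these comparisons missed the threshold with all 16 arrays. Ackr2, an atypical receptor that scavenges inflammatory CC chemokines, read 10.05, 10.08, 9.81 and 10.33 in non-pregnant PBS and 10.73, 10.65, 10.48 and 10.47 in pregnant PBS. The groups were apart, and the difference was 0.51 ± 0.12 (adjusted p = 0.0964). After TiO2 its difference was 0.02 ± 0.12. Cxcl17, a mucosal chemokine of airway epithelium, read 10.17, 10.03, 8.78 and 9.98 in non-pregnant PBS, 9.94, 10.06, 10.12 and 10.22 in non-pregnant TiO2, 10.32, 10.34, 10.36 and 10.56 in pregnant PBS and 10.54, 10.49, 10.42 and 10.42 in pregnant TiO2. Every pregnant array was above every non-pregnant array, with an average difference of 0.52 ± 0.15 (adjusted p = 0.0986). The PBS difference was 0.66, and without the 2 arrays with thymus transcripts, which include the low value of replicate 3, it was 0.29 (adjusted p = 0.235). Without those arrays Cxcl17 was called after TiO2, at 0.38 ± 0.09 (adjusted p = 0.0471), and over both exposures, at 0.34 ± 0.07 (adjusted p = 0.0155).

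The inflammatory CC ligands as a group had 13 of 14 members above 0 for pregnancy, with a median of 0.33, although Ccl9 alone was called. Ccl6, a macrophage ligand, differed by 0.28 ± 0.08 (adjusted p = 0.0652). The monocyte-attracting Ccl8 read 6.61, 6.83, 6.47 and 6.44 in non-pregnant TiO2 and 7.32, 7.33, 7.13 and 7.50 in pregnant TiO2, without overlap, and the difference was 0.73 ± 0.18 (adjusted p = 0.0703). Ccl12, another ligand of Ccr2, read 5.46, 5.13, 5.37 and 5.22 in non-pregnant TiO2 and 6.18, 6.05, 5.67 and 6.39 in pregnant TiO2, a difference of 0.78 ± 0.22 (adjusted p = 0.114). After PBS, Ccl8 differed by 0.07 ± 0.18. Among the 9 lymphoid and homeostatic ligands 3 were above 0, with 1 called higher and 1 lower. Of the 9 CC receptors 4 were above 0 with 2 called, of the 7 other signalling receptors 5 with 1 called, and of the 4 atypical receptors 3 with 0 called by limma (3 at an unadjusted p under 0.05, where 15.4% of all genes were). Over all genes 2.30% were called for pregnancy over both exposures, and 53.5% were above 0.

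TiO2 moved no chemokine or receptor gene past the threshold in either state. In non-pregnant lung limma called 0 of 53 genes, where 0.0055% of all genes were called (1 gene), and in pregnant lung 0 of 53, where 0% of all genes were. At an unadjusted p under 0.05 there were 9 genes in non-pregnant and 6 in pregnant lung, against 8.49% and 5.91% of all genes. The medians of the family were -0.08 and 0.09, against -0.02 and 0.00 over all genes. Averaged over both states limma called 0 of 53, where 0% of all genes were called (4 at an unadjusted p under 0.05, where 5.74% of all genes were). Groups without overlap numbered 2 in each state, Ccl25 and Ccr4 lower in non-pregnant lung (2.79% of all genes) and Cxcl3 and Cxcl16 higher in pregnant lung (1.86% of all genes).

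**Figure D3:**
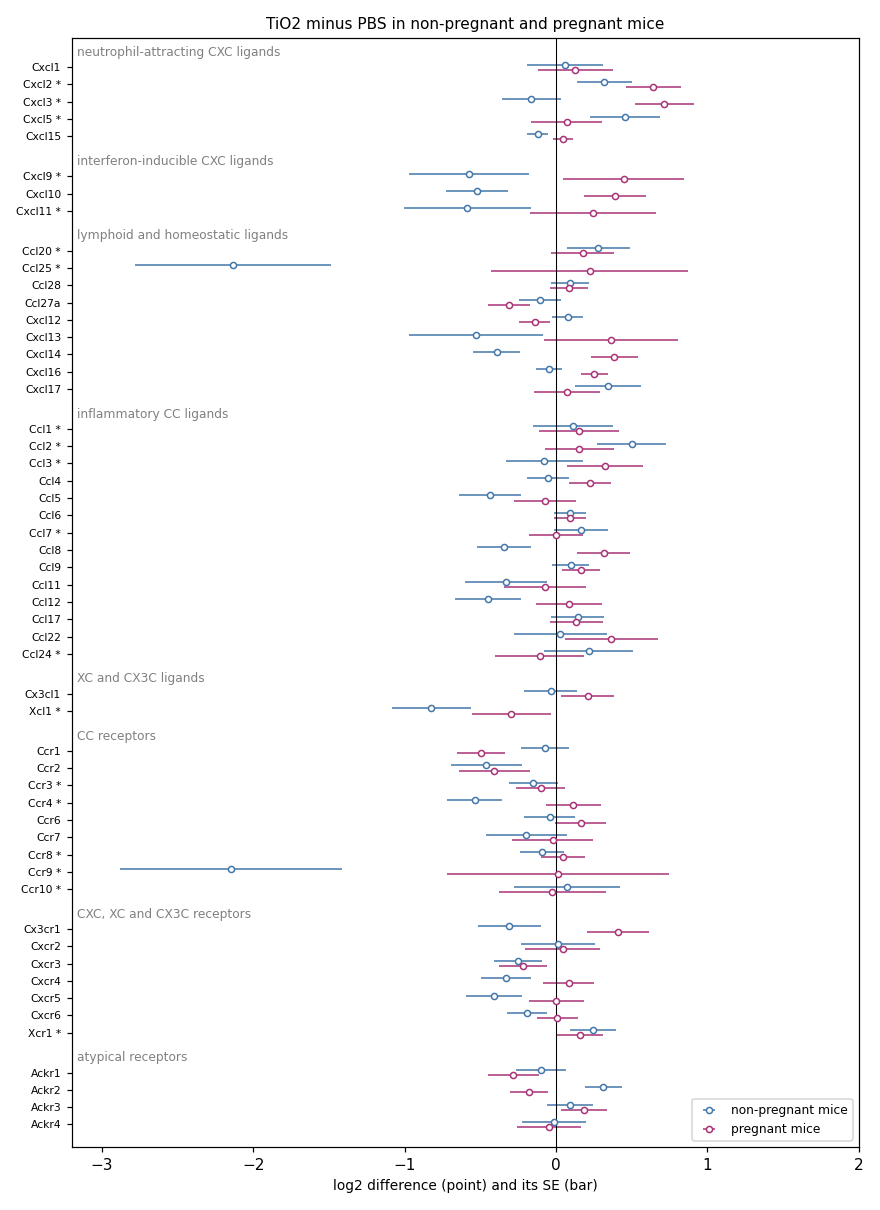
TiO2 minus PBS difference for the 53 genes grouped by role, in non-pregnant and in pregnant lung. Points are log2 differences, bars are 1 SE, and an asterisk marks genes near the floor. No point is filled, since no gene had an adjusted p under 0.05 in either state.

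Among the neutrophil-attracting ligands, Cxcl2 read 5.22, 4.73, 4.80 and 5.18 in non-pregnant PBS, 5.05, 5.53, 5.43 and 5.21 in non-pregnant TiO2, 5.14, 5.60, 5.23 and 4.97 in pregnant PBS and 5.43, 6.09, 5.78 and 6.21 in pregnant TiO2. The groups overlapped in each state, and in pregnant lung 3 of 4 TiO2 arrays were above all PBS arrays. The difference was 0.64 ± 0.18 in pregnant lung (adjusted p = 0.675), 0.32 ± 0.18 in non-pregnant lung (adjusted p = 0.662) and 0.48 ± 0.13 over both states (adjusted p = 0.557). Cxcl3 read 5.49, 4.62, 4.73 and 4.99 in non-pregnant PBS, 4.75, 4.95, 4.98 and 4.50 in non-pregnant TiO2, 5.11, 4.90, 4.50 and 5.24 in pregnant PBS and 5.49, 5.96, 5.67 and 5.51 in pregnant TiO2. In pregnant lung the TiO2 arrays were all above the PBS arrays, by 0.72 ± 0.19 (adjusted p = 0.647), and in non-pregnant lung the difference was -0.16 ± 0.19 (adjusted p = 0.873). The pregnant TiO2 arrays exceeded the non-pregnant TiO2 arrays in Cxcl3 by 0.86 ± 0.19 (adjusted p = 0.0529). Both genes were near the floor, with Cxcl2 above the array median on 2 of 16 arrays and Cxcl3 on 1.

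Cxcl1, the mouse ligand known as KC, was above the median on all arrays and differed with TiO2 by 0.06 ± 0.25 in non-pregnant and 0.13 ± 0.25 in pregnant lung, with 95% intervals of -0.47 to 0.59 and -0.40 to 0.66. Its probe set may match other transcripts, as its name ends in _s_at. Cxcl15, called lungkine for its expression in lung epithelium, was between 12.38 and 12.70 on every array and differed by -0.12 ± 0.07 and 0.05 ± 0.07. Cxcl5, near the floor, differed by 0.46 ± 0.23 and 0.07 ± 0.23. Cxcr2, the receptor of Cxcl1 and Cxcl5 on neutrophils, was between 5.72 and 7.0 and differed by 0.01 ± 0.25 and 0.04 ± 0.25. Pregnant arrays were higher in Cxcr2 by 0.50 ± 0.17 (adjusted p = 0.167). The small differences of Cxcl1, Cxcl3, Cxcl5, Cxcl15 and Cxcr2 turned sign in some alternatives. The neutrophil markers had median TiO2 differences of -0.18 in non-pregnant and -0.56 in pregnant lung, with 1 and 3 of 13 above 0. In each state limma called 0 of 13 (2 and 10 at an unadjusted p under 0.05, where 8.49% and 5.91% of all genes were). Lcn2 went the other way in both states. In non-pregnant lung it read 9.57 to 10.42 after PBS and 10.38 to 11.09 after TiO2, with overlap. In pregnant lung it read 10.53 to 10.95 after PBS and 11.17 to 11.80 after TiO2, without overlap. Such a separation upward was seen for 1.86% of all genes.

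**Figure D4:**
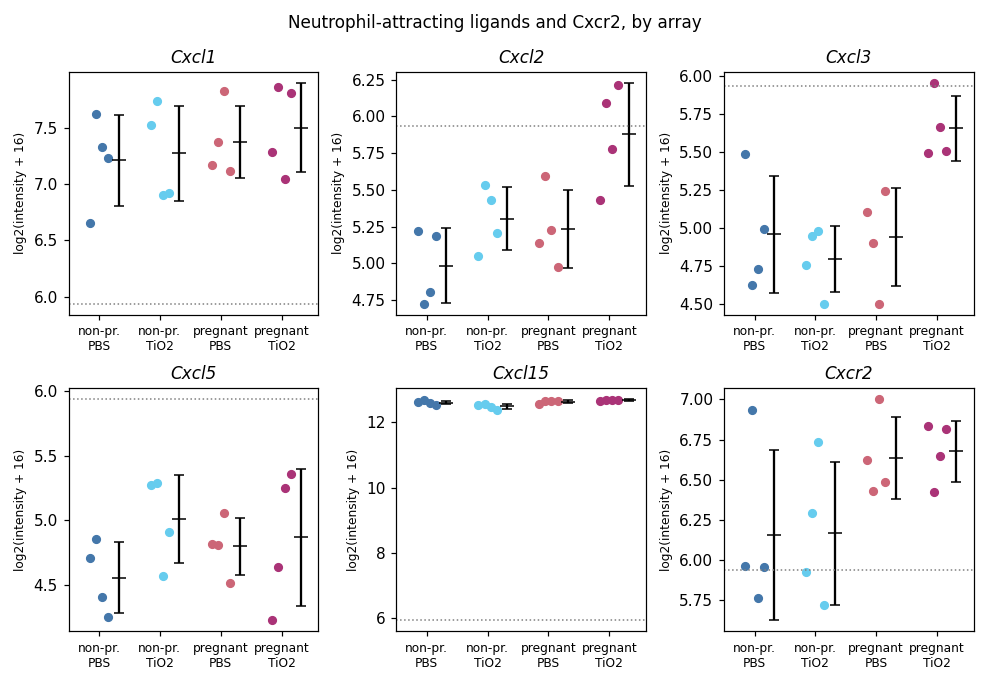
Level of the 5 neutrophil-attracting ligands and of Cxcr2, log2(intensity + 16), by array. Points are arrays, bars are the group mean ± SD of 4 arrays, and the dotted line is the array median. Cxcl2 and Cxcl3 lie mostly under the median, with their highest points in pregnant TiO2 lung (6.21 and 5.96).

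Cxcl2 and Cxcl3 are the ligands with the smallest p for TiO2 in pregnant lung, and their promoter windows are shown because they share a spelling. Capitals mark GGGAATTTCCC, which holds a pair of overlapping NF-kB matches on opposite strands, the GC box in Cxcl2 and TATAAA in Cxcl3.
Cxcl2, chr5:90903649-90903948, plus strand: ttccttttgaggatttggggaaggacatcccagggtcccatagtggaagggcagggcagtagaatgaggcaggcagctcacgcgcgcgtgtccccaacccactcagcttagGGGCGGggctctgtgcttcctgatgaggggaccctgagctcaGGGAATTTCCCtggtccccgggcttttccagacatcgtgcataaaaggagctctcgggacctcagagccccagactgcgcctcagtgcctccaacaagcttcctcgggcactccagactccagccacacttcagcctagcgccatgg
Cxcl3, chr5:90785851-90786150, plus strand: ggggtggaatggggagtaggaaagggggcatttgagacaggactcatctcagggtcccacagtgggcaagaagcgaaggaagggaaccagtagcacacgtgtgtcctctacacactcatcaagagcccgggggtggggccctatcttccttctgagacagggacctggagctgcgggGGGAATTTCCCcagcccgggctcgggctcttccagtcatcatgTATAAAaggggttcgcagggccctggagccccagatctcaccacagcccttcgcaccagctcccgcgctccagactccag
The NF-kB spelling began at -97 in Cxcl2 and -73 in Cxcl3, and Cxcl1, which lies in the same cluster on chromosome 5, held it at -71. Of the 44 windows of the family 6 held an NF-kB spelling, or 13.6% (Ccr3, Ccr6, Cxcl1, Cxcl2, Cxcl3 and Cxcl10), against 0.499% of all windows. None of these 6 genes was called for TiO2 in either state.

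The interferon-inducible ligands, which attract activated T cells through Cxcr3, were low. Cxcl9 and Cxcl11 were near the floor, and Cxcl10 was above the median on 5 of 16 arrays. Cxcl10 read 6.16, 5.87, 6.04 and 6.37 in non-pregnant PBS, 5.0, 6.14, 5.50 and 5.70 in non-pregnant TiO2, 5.82, 5.61, 5.50 and 5.52 in pregnant PBS and 5.87, 5.86, 5.78 and 6.50 in pregnant TiO2. With TiO2 it differed by -0.52 ± 0.21 in non-pregnant (adjusted p = 0.506) and 0.39 ± 0.21 in pregnant lung (adjusted p = 0.850).

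The study's question, whether the TiO2 effect differs with pregnancy, was tested as the difference of the differences. No chemokine gene was called (0 of 53 by limma, background 0.0055%), and 9 of 53 had an unadjusted p under 0.05, where 8.96% of all genes did. The smallest p belonged to Cxcl14, whose TiO2 difference was -0.39 ± 0.16 in non-pregnant and 0.39 ± 0.16 in pregnant lung, a difference of 0.78 ± 0.22 (adjusted p = 0.454). The values for Cxcl3 were 0.88 ± 0.27 (adjusted p = 0.492), for Cxcl10 0.91 ± 0.29 (adjusted p = 0.492), for Ccl8 0.66 ± 0.25 (adjusted p = 0.515) and for Ackr2 -0.49 ± 0.17 (adjusted p = 0.498). Of the 53 genes 37, or 69.8%, had a more positive TiO2 difference in pregnancy, where 54.1% of all genes did. The median was 0.17 against 0.03 over all genes. These comparisons share arrays with the pregnancy comparisons and are not independent of them.

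Members that guide lymphocytes in lymphoid tissue varied between arrays of 1 group. Ccl25, which draws developing T cells in thymus, read 5.60, 5.38, 8.12 and 9.15 in non-pregnant PBS and at most 5.85 on the other arrays. Its receptor Ccr9 read 5.25, 5.20, 9.02 and 9.37 in non-pregnant PBS and at most 5.91 elsewhere. Both were high on the 2 arrays that carried Prss16, and both were near the floor on the other 14. The thymus list summed to 401 to 3832 in non-pregnant PBS and to at most 631 in the other groups, and the T cell list to 782 to 3834 and at most 1312. The TiO2 difference of Ccl25 in non-pregnant lung was -2.13 ± 0.65 (adjusted p = 0.400), and that of Ccr9 -2.15 ± 0.74 (adjusted p = 0.449). Without the 2 arrays they were -0.55 and -0.16. These fitted differences of more than 2 thus rest on these arrays.

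Cxcl13, the B cell attractant of follicles, and Ccr7, the receptor that leads lymphocytes and dendritic cells into lymph nodes, also varied within groups. Cxcl13 read 8.79, 8.99, 8.44 and 8.24 in non-pregnant PBS, 7.56, 8.53, 8.38 and 7.88 in non-pregnant TiO2, 9.39, 9.23, 7.78 and 8.94 in pregnant PBS and 9.72, 7.63, 9.89 and 9.56 in pregnant TiO2. The spread in pregnant TiO2 (SD 1.05) exceeded the average pregnancy difference of 0.67 ± 0.31 (adjusted p = 0.324). Its low array, pregnant TiO2 replicate 2, is the array with low Krt13 and Acta1, and the high endothelial venule gene Glycam1 read 4.15 there against 10.56 or more on the other pregnant TiO2 arrays. Glycam1 was also low on non-pregnant TiO2 replicates 1 and 4, at 4.14 and 4.60, where Cxcl13 had the lowest values of its group. The fat gene Adipoq was lowest on the same arrays. It read 8.65 on pregnant TiO2 replicate 2 and 8.39 and 7.73 on non-pregnant TiO2 replicates 1 and 4, against 9.30 or more elsewhere. Without pregnant TiO2 replicate 2 Cxcl13 was among the genes called for pregnancy. Ccr7 differed with pregnancy by 0.49 ± 0.19 (adjusted p = 0.215), and without the 2 arrays with thymus transcripts by 0.77 ± 0.14 (adjusted p = 0.0107). The part of carried-along lymphoid tissue or fat in these values was not tested.

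**Figure D5:**
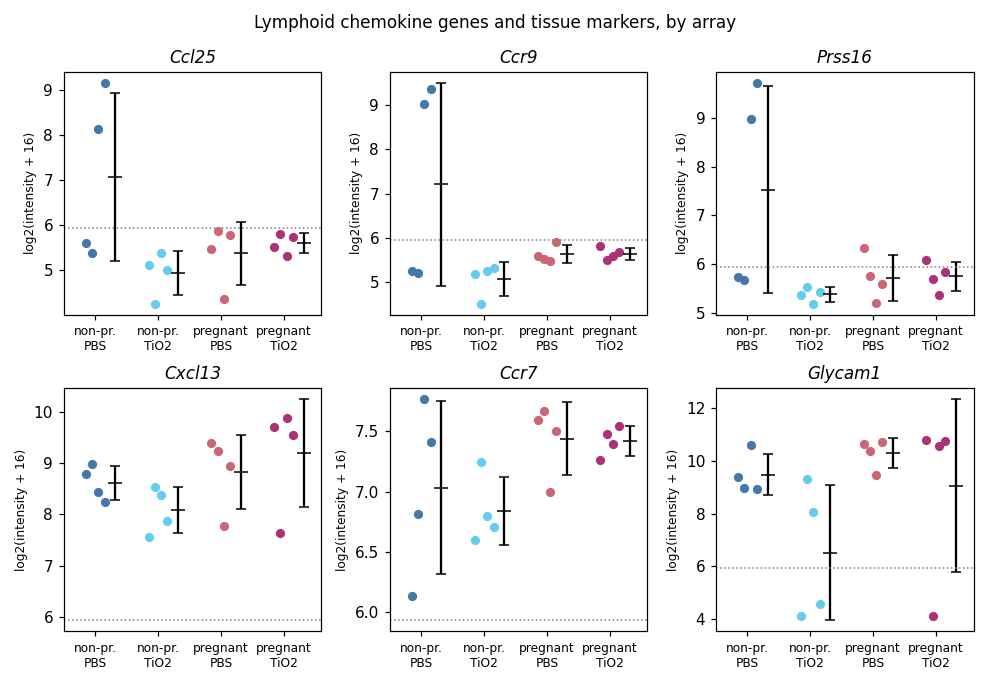
Level of Ccl25, Ccr9, Cxcl13 and Ccr7 beside the thymus marker Prss16 and the lymph node venule marker Glycam1, log2(intensity + 16), by array. Points are arrays, bars are the group mean ± SD of 4 arrays, and the dotted line is the array median. Ccl25, Ccr9 and Prss16 are high on the same 2 non-pregnant PBS arrays (8.12 and 9.15 for Ccl25).

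Of other members with small p for TiO2 in non-pregnant lung, Xcl1 and Ccr4 were dim and Ackr2 was not. Xcl1, a ligand made by natural killer and CD8+ T cells, read 4.98, 5.47, 5.93 and 5.60 in PBS and 4.43, 4.43, 4.38 and 5.44 in TiO2, a difference of -0.82 ± 0.26 (adjusted p = 0.416). Ccr4, a receptor of helper T cells, read 5.26, 4.52, 4.83 and 4.63 in PBS and 4.26, 4.35, 4.24 and 4.24 in TiO2, a difference of -0.54 ± 0.18 (adjusted p = 0.444). All 16 values of Xcl1 and of Ccr4 were under the array median. Ackr2, above the median on all 16 arrays, read 10.05, 10.08, 9.81 and 10.33 in PBS and 10.43, 10.27, 10.34 and 10.49 in TiO2. These groups overlapped. Its difference was 0.23 to 0.51 over the alternatives, and it was called in none of them. In pregnant lung Ccr1 was lower by -0.50 ± 0.16 after TiO2 (adjusted p = 0.753), Cxcl16 differed by 0.25 ± 0.09 (adjusted p = 0.792) and Ccl27a, a skin-homing ligand, by -0.31 ± 0.14 (adjusted p = 0.836). Over both states the smallest p after Cxcl2 belonged to Xcl1, at -0.56 ± 0.18, and to Ccr2, at -0.43 ± 0.16.

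Among members made constitutively, Cxcl12, a stromal ligand, was between 10.25 and 10.81, and its receptor Cxcr4 between 9.36 and 10.23. The membrane-bound ligand Cx3cl1 was between 8.02 and 8.90 and Cx3cr1, its receptor on monocytes, between 5.99 and 7.17. None of these 4 genes was called in any of the 7 comparisons. Ackr3, an atypical receptor that binds Cxcl12, was between 8.74 and 9.58 and differed with pregnancy by -0.30 ± 0.11 (adjusted p = 0.172).

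Of the listed genes around chemokine signalling (other ligands, G protein subunits, kinases, arrestins, proteases and proteoglycans), 35 of 38 were measured. Averaged over both exposures 4 were called higher in pregnancy and 0 lower, where 2.30% of all genes were called. They were Ppbp, a platelet chemokine, by 1.24 ± 0.16 (adjusted p = 0.000914), Mmp9, a protease that trims chemokines, by 0.52 ± 0.09 (adjusted p = 0.00697), Rac2, a haematopoietic GTPase of migration, by 0.48 ± 0.09 (adjusted p = 0.0148), and Pf4, a platelet chemokine, by 0.40 ± 0.09 (adjusted p = 0.0341). Ppbp and Pf4 also belong to the platelet list and Mmp9 to the neutrophil list. For TiO2 limma called 0 of the 35 in either state (8 in non-pregnant and 3 in pregnant lung at an unadjusted p under 0.05, where 8.49% and 5.91% of all genes were).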

How the data were processed

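Whole-lung RNA was measured on 16 Affymetrix arrays, 4 in each group. The deposited values are intensities per probe set on a linear scale. The submitters' processing notes list GCOS, MAS5 and RMA as tools, without versions, and do not say which of them gave the deposited intensities. The authors' table holds 45101 probe sets. The platform annotation gives 1 symbol to 34958 probe sets and several to 932. With 64 control probe sets left out, 9160 of the table have none listed. The counts with symbols were taken without leaving out controls, so these numbers do not add up to the table. Symbols were updated by Entrez number in RefSeq's GRCm38.p6 table (34754 matched).

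After removal of 64 Affymetrix control probe sets, intensities were quantile-normalized between arrays, and log2(intensity + 16) was fitted in limma 3.58.1 (R 4.3.3, lmFit and eBayes) as 4 group means over 16 arrays, with 15.2 total degrees of freedom and 95% intervals. All 7 comparisons were adjusted by Benjamini-Hochberg over 18193 genes. Near the floor means not above the array median on at least 4 arrays. The fit was tested on simulated data. Left out were 4 probe sets of chemokine genes with several symbols.

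Genes named were those called in any comparison, the 6 with the smallest p in each, and the neutrophil-attracting ligands with Cxcr2; those shown for levels, markers or arrays that stand apart were chosen after their values were seen. The members and lists were chosen with earlier results of these data known. The number of arrays limits the precision. Alternatives changed the normalization, pseudocount, filter, spread estimate, array weights, probe set choice, samples fitted, the disputed label and the arrays left out.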

Additional observations from a re-analysis of the deposited data

Results flagged for a closer look

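In 8 of 92 groups of 4 arrays looked at, over the named members, the highest or lowest array lay far from the other 3; chance sets apart about 1 group in 20. Cxcl17, the epithelial chemokine, read 8.778 on non-pregnant PBS replicate 3, which carries thymus transcripts, against 9.976 to 10.17 on the others. Cxcr2, the neutrophil receptor, read 6.935 on non-pregnant PBS replicate 2, the array with the disputed label, against 5.768 to 5.965. Cxcr3, a receptor of activated T cells, read 5.83 on pregnant TiO2 replicate 2, the array low in Krt13 and Acta1, against 6.126 to 6.153. Cxcl10 read 6.5 on pregnant TiO2 replicate 4, against 5.784 to 5.867. Cxcr6 read 6.503 on pregnant PBS replicate 2, against 6.099 to 6.14. Xcl1 read 5.445 on non-pregnant TiO2 replicate 4, against 4.376 to 4.432. The gaps were small for Ccl9, at 9.459 on pregnant PBS replicate 1 against 9.418 to 9.423, and for Cxcl15, at 12.64 on pregnant TiO2 replicate 1 against 12.69 to 12.7.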

How the results depend on the processing

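No paired analysis was possible because the labels give no replicate numbers that link samples across groups. For pregnancy averaged over both exposures, 6 members were called, where 2.30% of all genes were. With values as deposited 1 was called (0.313% of all genes). With non-pregnant PBS replicate 2 counted as pregnant PBS 1 was called (0.176%), and both were Ccl9. With single arrays left out 5 to 8 were called (1.47% to 3.8% of all genes). The count after PBS, 3 (0.506% of all genes), was 0 as deposited (0.104%) and 0 with non-pregnant PBS replicate 2 counted as pregnant (0%). It was 1 without the 2 arrays with thymus transcripts (0.775%) and 1 without those and pregnant TiO2 replicate 2 (0.923%), Cxcl14 in both. With single arrays left out it was 1 to 3 (0.209% to 0.824%), with 1 without non-pregnant PBS replicate 4 or pregnant PBS replicate 1 or 2. The count after TiO2, 2 (0.775% of all genes), was 0 as deposited (0.0055%) and 0 with the disputed replicate counted as pregnant (0.077%). It was 4 with the expression filter (1.88%), 7 with array weights (3.11%) and 0 to 4 with single arrays left out (0.077% to 1.31%). With only the TiO2 groups in the fit the count was again 2 (0.923% of all genes), but these were Ccl8 and Cxcl3. The TiO2 comparisons and the difference of differences gave 0 calls under every alternative run. The signs of the 6 members called for pregnancy did not turn, and Ccl9 was called in the average over both exposures in all of them. Without normalization between arrays the median of all genes was 0.13 for pregnancy after PBS.

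Of the single-gene values 25 turned sign, all TiO2 differences of neutrophil-attracting ligands or Cxcr2. In non-pregnant lung Cxcl1 was -0.43 without the 3 arrays that stood apart and -0.13 to 0.20 with single arrays left out, Cxcl3 was -0.28 to 0.014 with single arrays left out, and Cxcr2 was -0.0085 after scaling to a trimmed mean, -0.28 without 2 arrays, -0.28 without 3, and -0.18 to 0.27 with single arrays left out. In pregnant lung Cxcl1 was -0.045 without 3 arrays and 0.0092 to 0.28 with single arrays left out, Cxcl15 was -0.0087 as deposited, Cxcl5 was -0.034 with a pseudocount of 1 and -0.092 to 0.29 with single arrays left out, and Cxcr2 was -0.062 as deposited, -0.016 with the disputed replicate counted as pregnant, and -0.024 to 0.17 with single arrays left out. Each alternative chose the probe set of a gene anew, and Cxcl1 has 3. Without only the 2 arrays with thymus transcripts, Cxcl1 was 0.13 in non-pregnant and 0.13 in pregnant lung. The third array left out, pregnant TiO2 replicate 2, is not part of the non-pregnant difference. Which probe set of Cxcl1 the fit without 3 arrays used is not given here, and the cause of the turns was not tested. With the expression filter, genes near the floor have no value, and fits of only the groups of a contrast give none for averaged comparisons. Dim signal limits the 19 members near the floor.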
